A study of Mus musculus with 27 samples.

Results

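The intestine of irradiated mice was compared at 24 h and at 6 h after 6 Gy of gamma rays from a 60Co source. The comparison used 6 of the 27 libraries of the series, 3 at 24 h and 3 at 6 h, chosen by their labelled dose and time and by no measured value. Both groups were labelled as wild-type C57BL/6 males, and the design text gives an age of 6 to 8 weeks and a dose rate of 72 R per min for the study. Neither group received CBLB502, a flagellin-derived agonist of TLR5 that the series tests as a radioprotectant. The 24 h group received 6 Gy and was sampled at 24 h, and the 6 h group received the same 6 Gy and was sampled at 6 h. For levels outside this pair, 3 libraries each were taken at 24 h and 6 h after 15 Gy and 3 from untreated controls. The design text names 7 groups of 10 mice, the 6 Gy 6 h group among them, while the labels define 9 groups, the 6 Gy 24 h group included. The labels do not say which segment of the intestine was taken or whether a library holds 1 mouse or a pool. p-values therefore measure the spread between libraries, estimated in 1 fit over all 27, and this spread may be technical.

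Radiation kills dividing crypt cells within hours, and stabilised p53 switches on arrest and death genes in the cells that are damaged. The epithelium above the crypts also senses damage and microbes: cytokines that act through STAT3, interferons and NF-kB make enterocytes secrete antimicrobial lectins, produce hydrogen peroxide at the apical surface and fucosylate surface glycans. In the unstressed gut the same enterocytes absorb sugar and fat, oxidise fatty acids and detoxify food compounds, and secretory goblet, Paneth, tuft and enteroendocrine cells lie among them.

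Total counts were 57438640 to 67279339 at 24 h and 75059938 to 76615459 at 6 h. Markers of absorptive enterocytes were present in all 6 libraries, the 36 genes summing to 90626, 106727 and 96873 CPM at 24 h, against 101556, 97034 and 93454 CPM at 6 h, and Keg1 alone had no counts in either group. The 6 libraries sampled 24 h after 6 Gy, with or without CBLB502, stood apart from the other 21: they lay at 63.0 to 89.8 on the first principal component, which held 26.6% of the variance, against -42.4 to 11.7 for the others. The number of genes with an FPKM (fragments scaled for gene length and library depth) of at least 1 was 9808 to 10421 at 24 h and 8299 to 8881 at 6 h. The 100 most abundant genes took 39.2 to 41.5% of counts at 24 h and 48.2 to 61.0% at 6 h. Library composition and time after irradiation thus moved together between the 2 groups and cannot be told apart. Within the groups, 24 h replicate 2 held pancreatic enzyme RNA, and 6 h replicate 1 had the largest share of mitochondrial counts, 28.7%.

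Of 11118 genes tested, 3912 (35.2%) changed between the time points at an adjusted p under 0.05 in edgeR's quasi-likelihood test, 2103 (18.9%) being higher and 1809 (16.3%) lower at 24 h. Counts of called list members below are to be read beside these shares. In 5593 genes (50.3%) the CPM ranges of the groups did not overlap, and 3737 of the called genes were among them. The median log2 fold change over all tested genes was 0.06. This split rests on the scaling and on the libraries fitted. Fitted alone, the 6 compared libraries gave 1784 genes higher and 1827 lower. On log2(FPKM + 1), which keeps the submitters' own normalization, 4956 genes were called higher and 626 lower by limma. The median gene then stood 0.38 higher at 24 h (log2 scale). Log2 fold changes below are from the counts with trimmed-mean (TMM) scaling and always give 24 h minus 6 h, CPM denotes counts scaled to a common library total in this way, and SE is the standard error of the log2 fold change. In bulk tissue, fewer cells of a type and less RNA per cell cannot be told apart. Fits were also made with 1 covariate per library: a pancreas, a stromal or a clock score. The pancreas score was the mean log2 CPM of the tested genes of the exocrine pancreas list. The stromal score was that of the fibroblast and smooth muscle lists, and the clock score set circadian genes of opposite phase against each other. A fit with a score cannot test the genes that the score is built from. The clock score did not overlap between the groups, at -0.44 to -0.19 at 24 h and 2.13 to 3.22 at 6 h. The sums of the fibroblast and of the smooth muscle markers did not overlap either. For a score that moved with time, a call lost in the fit cannot be assigned to the score or to time. These covariate fits called 2164, 2355 and 2363 genes, and the counts given for them below keep this order. With 24 h replicate 2 and 6 h replicate 1 both left out, 3188 genes were called, 1771 higher and 1417 lower.

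**Figure D1:**
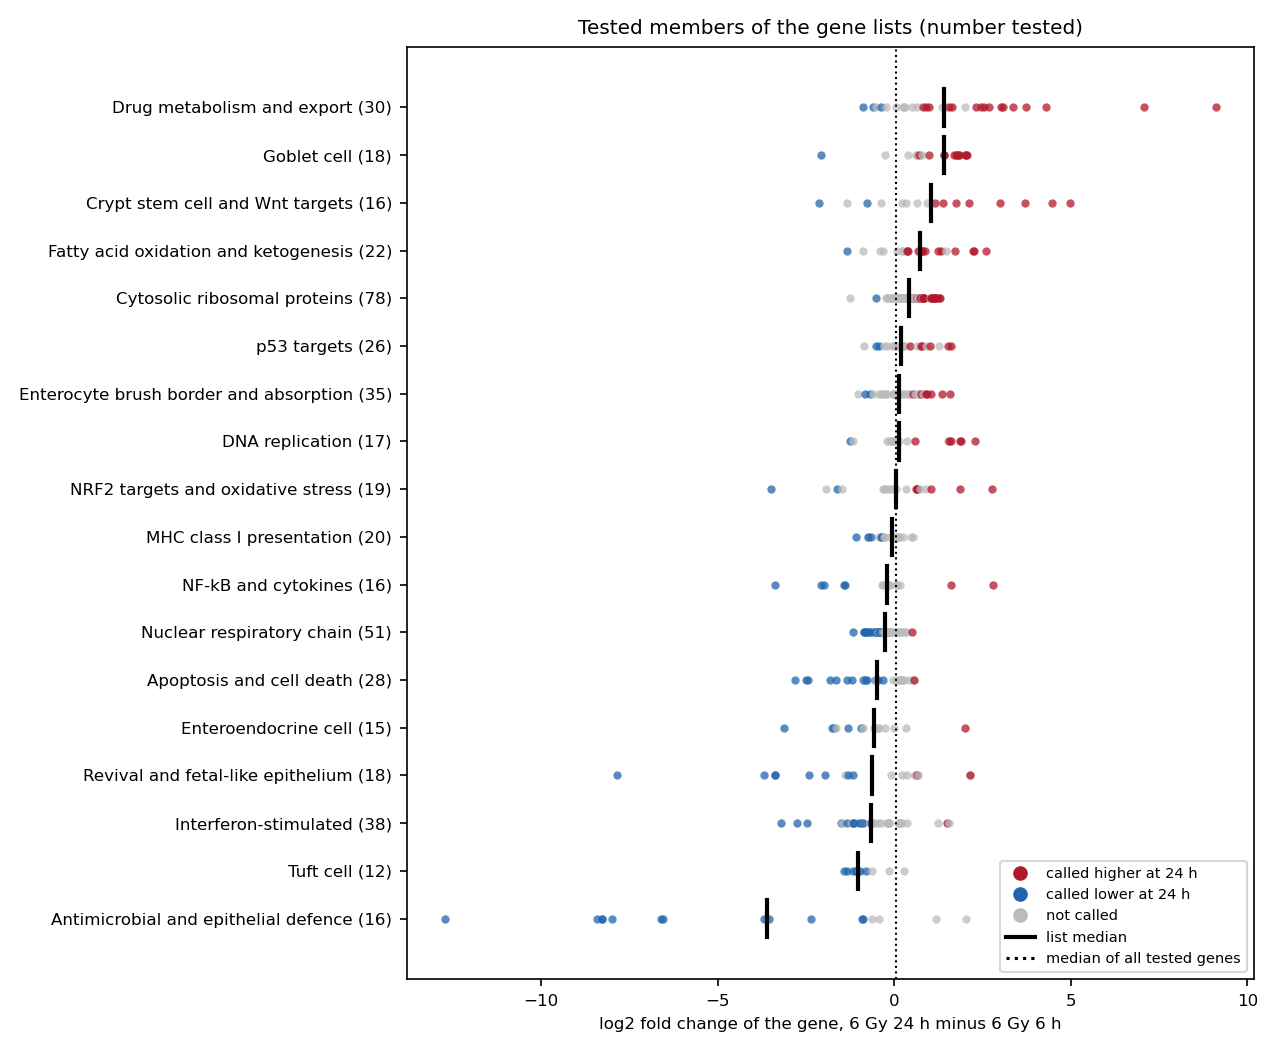
Log2 fold change (24 h minus 6 h after 6 Gy) of each tested member of 18 gene lists. Points are genes, black bars list medians and the dotted line the median of all tested genes, 0.06. The antimicrobial list has the lowest median, -3.62, and the drug metabolism list the highest, 1.41.

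Genes of epithelial defence had the lowest median of the lists shown. Of 16 tested members of the antimicrobial and epithelial defence list 12 fell, where 16.3% of all tested genes fell, and the list's median was -3.62. None was called higher by edgeR (0 at an unadjusted p under 0.05 and 0 by DESeq2), though 2 were without 6 h replicate 1. The summed level of the list was 11018, 9505 and 8680.0 CPM at 24 h, against 47859, 50957 and 58528 CPM at 6 h. The 3 untreated controls lay between 14892 and 26514 CPM, so the 24 h libraries lay below and the 6 h libraries above all of them. Leaving out each of the 6 libraries in turn gave 11 to 13 falls.

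Reg3b and Reg3g, secreted lectins that kill bacteria at the mucosal surface, fell by nearly the same amount. Reg3b had 2485, 2643 and 1511 CPM at 24 h, against 22156, 26245 and 29819 CPM at 6 h (log2 fold change -3.56 ± 0.48 SE, adjusted p = 9e-06). Reg3g had 948, 1056 and 533 CPM at 24 h, against 12684, 9433 and 10386 CPM at 6 h (log2 fold change -3.68 ± 0.50 SE, adjusted p = 1.1e-05). Every 6 h library lay above every 24 h library for both lectins, by a wide margin. Lypd8, a glycosylated surface protein that keeps flagellated bacteria away from the epithelium, had 1222, 793 and 1549 CPM at 24 h, against 5096, 6257 and 6933 CPM at 6 h (log2 fold change -2.36 ± 0.36 SE, adjusted p = 3.7e-05). Lcn2, which sequesters bacterial iron chelators, had 0.229, 0.352 and 0.140 CPM at 24 h, against 141, 33.8 and 49.9 CPM at 6 h (log2 fold change -8.27 ± 0.94 SE, adjusted p = 1.2e-06). Saa1, an acute-phase protein, had 0.0539, 0.0485 and 0 CPM at 24 h, against 628, 48.5 and 44.7 CPM at 6 h (log2 fold change -12.72 ± 2.20 SE, adjusted p = 0.00014). The 6 h libraries of Saa1 were uneven, replicate 1 standing far above the others, but all lay above the 24 h libraries. Without 6 h replicate 1 the log2 fold change was -10.34 for Saa1 and -7.42 for Lcn2.

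Duox2 and its maturation factor Duoxa2, which together produce hydrogen peroxide at the apical membrane, fell in parallel. Duox2 had 4.35, 2.03 and 1.22 CPM at 24 h, against 1269, 586 and 737 CPM at 6 h (log2 fold change -8.42 ± 1.29 SE, adjusted p = 4.1e-05). Duoxa2 had 0.795, 0.850 and 0.813 CPM at 24 h, against 335, 129.8 and 161 CPM at 6 h (log2 fold change -7.99 ± 1.36 SE, adjusted p = 0.00012). All 3 libraries at 6 h held high levels of Duox2, and the 24 h libraries low ones. In untreated controls Duox2 averaged 204 ± 99.7 CPM and Duoxa2 49.7 ± 26.7 CPM (SD, n = 3), levels between those of the 24 h and the 6 h libraries. Without 24 h replicate 1 the log2 fold change of Duox2 was -9.05. Nos2, the inducible nitric oxide synthase, had 0.606, 1.63 and 0.419 CPM at 24 h, against 191, 31.2 and 29.7 CPM at 6 h (log2 fold change -6.56 ± 1.58 SE, adjusted p = 0.0029). Its value moved to -5.09 without 6 h replicate 1 and to -7.35 without 24 h replicate 2, and the call was lost with the pancreas score (adjusted p = 0.13) or the clock score (adjusted p = 0.06) as a covariate. The pair Duox2 and Duoxa2 lies head to head on chromosome 2, with 673 bases between their RefSeq start sites (GRCm38.p6), and their promoter windows are shown because the genes face each other across this stretch and fell together. Duox2 is on the minus strand at chr2:122298178-122298477 and Duoxa2 on the plus strand at chr2:122298650-122298949. Each sequence runs 5′ to 3′ in the direction of its own gene, from 250 bases before to 50 bases after the start, and no capitals are set because no motif was searched in them.
Duox2: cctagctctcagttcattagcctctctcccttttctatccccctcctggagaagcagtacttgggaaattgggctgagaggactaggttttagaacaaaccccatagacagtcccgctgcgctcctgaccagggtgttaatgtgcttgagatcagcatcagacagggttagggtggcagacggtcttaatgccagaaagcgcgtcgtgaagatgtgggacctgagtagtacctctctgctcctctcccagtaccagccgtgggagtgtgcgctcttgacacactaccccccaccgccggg
Duoxa2: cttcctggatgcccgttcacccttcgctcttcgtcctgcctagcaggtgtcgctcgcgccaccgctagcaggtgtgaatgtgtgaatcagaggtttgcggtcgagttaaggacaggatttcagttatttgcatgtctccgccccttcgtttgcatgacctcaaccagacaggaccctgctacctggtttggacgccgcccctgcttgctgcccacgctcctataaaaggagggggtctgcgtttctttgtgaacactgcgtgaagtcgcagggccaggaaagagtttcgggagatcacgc

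Some feedback and regulator genes of these signals fell and others rose. Socs3, the inhibitor that STAT3 induces against itself, had 38.0, 50.4 and 34.5 CPM at 24 h, against 530.5, 409 and 329 CPM at 6 h (log2 fold change -3.37 ± 0.36 SE, adjusted p = 4.9e-07). Nfkbia, which encodes the NF-kB inhibitor IkBa, had 30.2, 27.3 and 26.8 CPM at 24 h, against 102, 51.9 and 67.9 CPM at 6 h (log2 fold change -1.40 ± 0.24 SE, adjusted p = 0.00013). Cebpb, a transcription factor of the acute-phase response, went the other way, with 25.1, 30.2 and 24.6 CPM at 24 h, against 4.58, 4.11 and 2.91 CPM at 6 h (log2 fold change 2.78 ± 0.25 SE, adjusted p = 6e-08). Over the NF-kB and cytokine list, 2 of 16 tested members (Ccl20 and Cebpb) rose and 5 (Socs3, Ccl28, Tnfaip3, Cebpd and Nfkbia) fell, with a median of -0.22; on log2(FPKM + 1) 5 rose and 4 fell, there were 1, 1 and 1 rises and 2, 2 and 2 falls in the covariate fits, and 2 fell without both 24 h replicate 2 and 6 h replicate 1. Without 6 h replicate 1 there were 1 rise and 3 falls, and without 24 h replicate 1 or 3, or 6 h replicate 2 or 3, 1 rise. The promoter windows of Socs3 and Reg3b are printed because both fell by over 3 on the log2 scale and both hold the palindrome TTCNNNGAA, to which STAT proteins bind. Capitals mark the match, searched on both strands. Socs3 lies on the minus strand at chr11:117969317-117969616, and Reg3b on the plus strand at chr6:78370635-78370934 (GRCm38.p6, RefSeq). The motif occurs in 8.3% of all 32851 RefSeq windows of this length, and the window of Reg3g holds no match to these letters.
Socs3: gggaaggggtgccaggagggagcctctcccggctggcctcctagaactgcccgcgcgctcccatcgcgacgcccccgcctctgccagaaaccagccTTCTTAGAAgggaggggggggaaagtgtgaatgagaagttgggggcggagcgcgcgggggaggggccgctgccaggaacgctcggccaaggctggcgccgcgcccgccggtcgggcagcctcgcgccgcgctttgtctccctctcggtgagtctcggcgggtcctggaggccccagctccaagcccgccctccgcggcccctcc
Reg3b: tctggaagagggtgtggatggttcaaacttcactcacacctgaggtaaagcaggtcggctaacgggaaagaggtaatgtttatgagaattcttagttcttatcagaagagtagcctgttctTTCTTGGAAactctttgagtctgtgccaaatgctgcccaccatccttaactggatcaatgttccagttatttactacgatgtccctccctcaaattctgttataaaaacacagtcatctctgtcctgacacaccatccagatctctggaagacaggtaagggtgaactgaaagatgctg

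Enzymes that build the glycan coat were among the largest or most certain falls; they formed no list of their own. Fut2, which adds terminal fucose to the surface and mucin glycans of enterocytes, had 0.795, 0.862 and 1.26 CPM at 24 h, against 287, 289 and 327 CPM at 6 h (log2 fold change -8.27 ± 0.59 SE, adjusted p = 3.6e-09). For comparison, Fut2 averaged 2.25 ± 1.01 CPM at 24 h and 1.81 ± 1.22 CPM at 6 h after 15 Gy and 1.89 ± 0.434 CPM in controls (SD, n = 3 each). The Fut2 gene spans chr7:45648591-45666394 on the minus strand. B3galt5, a galactosyltransferase of type 1 chains, had 2.55, 3.57 and 1.65 CPM at 24 h, against 286, 291 and 360.1 CPM at 6 h (log2 fold change -6.91 ± 0.95 SE, adjusted p = 1.2e-05). B4galt1, the galactosyltransferase of N-glycans, had 94.4, 108 and 96.0 CPM at 24 h, against 664, 539 and 588 CPM at 6 h (log2 fold change -2.58 ± 0.17 SE, adjusted p = 8.8e-10). Both galactosyltransferases were thus lower in every 24 h library. Gcnt3, which branches the O-glycans of mucins, had 34.7, 29.1 and 24.9 CPM at 24 h, against 187, 200.1 and 219 CPM at 6 h (log2 fold change -2.77 ± 0.20 SE, adjusted p = 5e-09). The transmembrane mucin Muc13 had 2949.9, 3255 and 2824 CPM at 24 h, against 12562, 11904 and 13352 CPM at 6 h (log2 fold change -2.07 ± 0.18 SE, adjusted p = 5.2e-08). Fam3b, a secreted cytokine-like protein, had the smallest p among the falls, with 106, 126 and 105 CPM at 24 h, against 625, 502 and 529 CPM at 6 h (log2 fold change -2.30 ± 0.13 SE, adjusted p = 4.2e-10).

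Among the largest falls were also 3 neighbours on chromosome 15 that encode small GPI-anchored proteins of the Ly6 family. Ly6d, at chr15:74762056-74763620, had 0.741, 0.134 and 0.381 CPM at 24 h, against 162, 61.6 and 67.7 CPM at 6 h (log2 fold change -7.86 ± 1.14 SE, adjusted p = 2.2e-05), with 6 h replicate 1 above the other libraries of its group. Gml, at chr15:74813452-74818815, had 1.40, 0 and 1.07 CPM at 24 h, against 146, 142 and 142 CPM at 6 h (log2 fold change -7.45 ± 0.88 SE, adjusted p = 2e-06). Gml2, at chr15:74819071-74834871, had 0.579, 0 and 0.521 CPM at 24 h, against 61.3, 62.6 and 59.5 CPM at 6 h (log2 fold change -7.39 ± 0.78 SE, adjusted p = 4.3e-07). Reads shared between Gml and Gml2 cannot be assigned with certainty. Leaving out 24 h replicate 1 gave -8.56 for Ly6d and -8.08 for Gml, leaving out 24 h replicate 2 gave -6.86 for Gml and -6.79 for Gml2, and leaving out 6 h replicate 1 gave -7.27 for Ly6d. Ly6g, a neutrophil surface antigen from the same family and at chr15:75155240-75159126, had no counts in the 3 libraries at 24 h, against 7.01, 5.31 and 5.28 CPM at 6 h, which makes it at least 460.2-fold lower when 3 counts over the 24 h group are taken as the floor. The other genes among the 14 largest falls encode secreted proteins, a RING finger protein and a liver enzyme. Hamp, the iron hormone hepcidin, had 0.0539, 0.0485 and 0 CPM at 24 h, against 21.3, 4.34 and 3.55 CPM at 6 h (log2 fold change -8.09 ± 1.79 SE, adjusted p = 0.0017). Lrg1, a leucine-rich acute-phase glycoprotein, had 0.162, 0.0485 and 0 CPM at 24 h, against 13.2, 4.19 and 9.80 CPM at 6 h (log2 fold change -7.00 ± 1.21 SE, adjusted p = 0.00015). Both were close to 0 in all 24 h libraries. Trim10, a RING finger protein, had 0.0404, 0.0850 and 0.203 CPM at 24 h, against 18.6, 16.5 and 13.8 CPM at 6 h (log2 fold change -7.19 ± 1.07 SE, adjusted p = 3e-05). Tat, the tyrosine aminotransferase that glucocorticoids induce in liver, had 0.108, 0 and 0.102 CPM at 24 h, against 45.0, 11.2 and 11.7 CPM at 6 h (log2 fold change -8.33 ± 1.39 SE, adjusted p = 1e-04). Without 6 h replicate 1 the values were -6.78 for Hamp and -7.33 for Tat. Without 24 h replicate 1 Lrg1 gave -8.43, without 24 h replicate 2 Tat gave -7.73, and without 24 h replicate 3 Trim10 gave -7.97. The call of Hamp was lost with the pancreas score (adjusted p = 0.11) and with the clock score (adjusted p = 0.16) as a covariate.

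**Figure D2:**
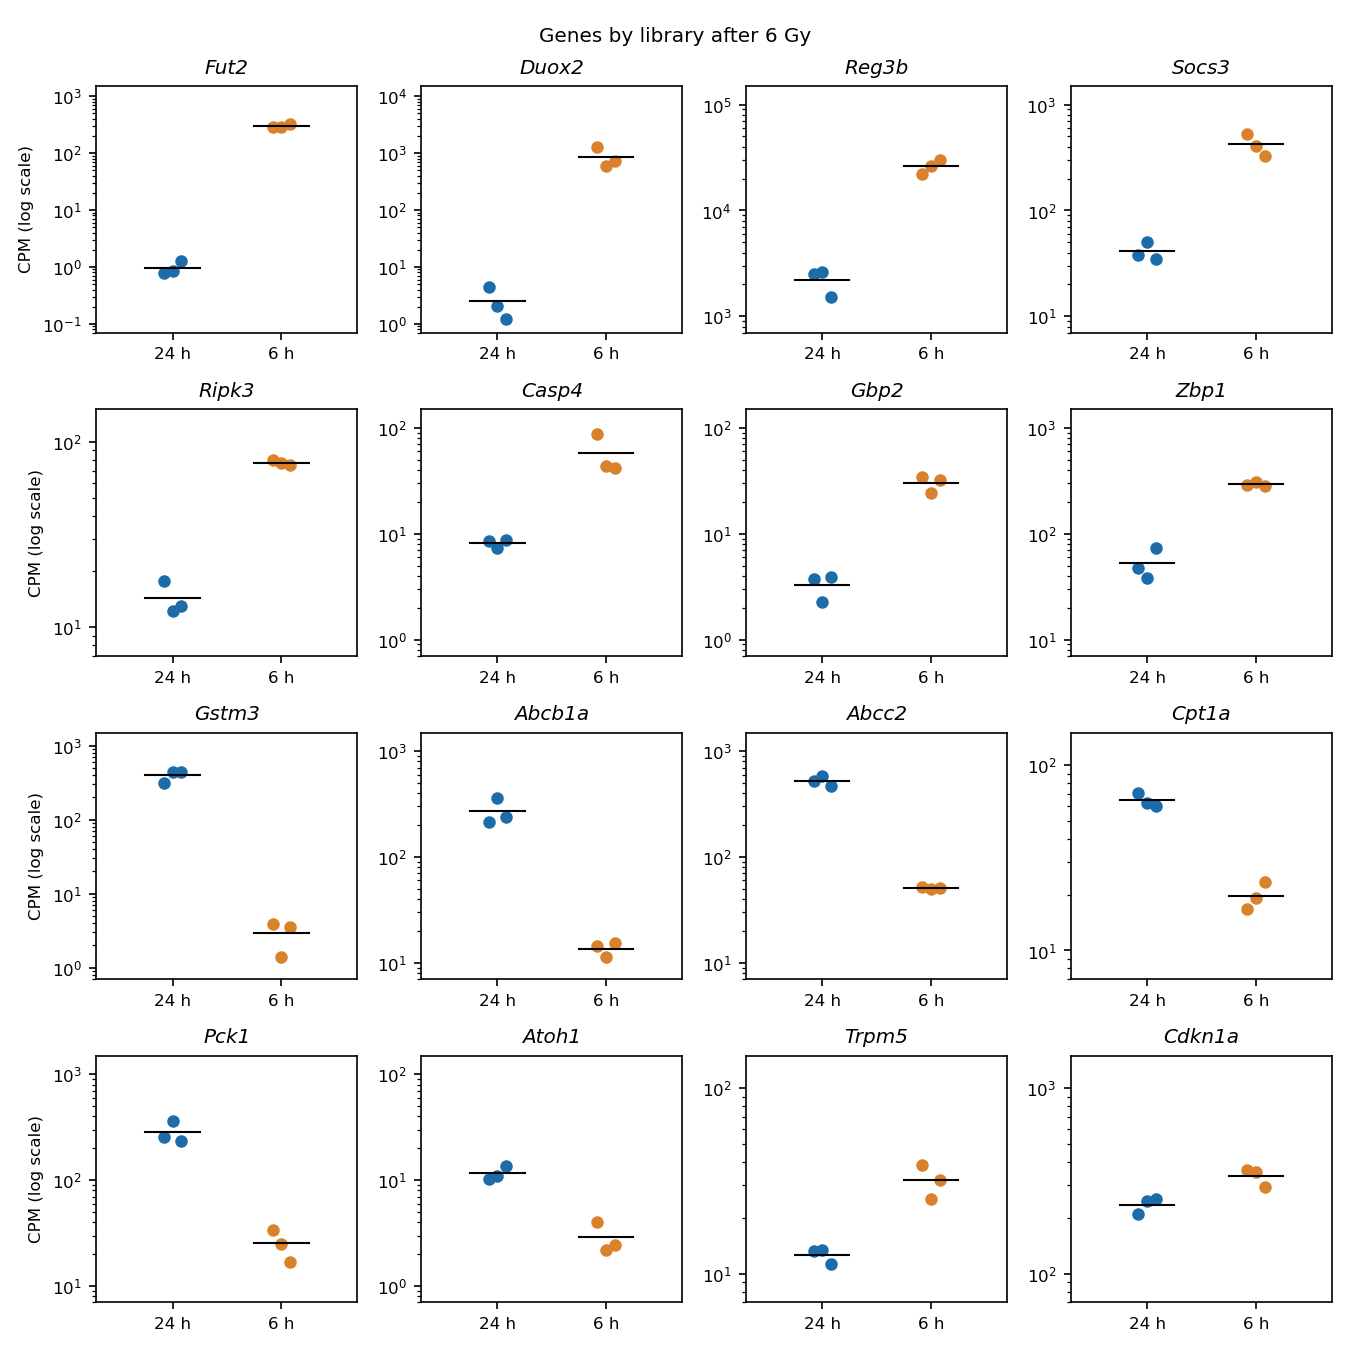
CPM (log scale) of 16 genes in each library, with 24 h left and 6 h right in each panel; points are libraries, bars group means. The groups do not overlap in any panel; Fut2, Duox2 and Reg3b are lower and Gstm3, Abcb1a and Abcc2 higher at 24 h.

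Several genes of the cell death machinery fell. Of 28 tested members of the apoptosis and cell death list, 14 fell and 1 (Casp1) rose, with a median of -0.49 beside 0.06 for all genes; on log2(FPKM + 1) the same list had 8 falls and 8 rises, so the balance of the smaller changes depends on the scaling. There were 1, 0 and 1 rises and 7, 9 and 8 falls in the covariate fits. The members named here fell on both scales. Ripk3, the kinase that starts necroptosis, had 17.7, 12.3 and 13.0 CPM at 24 h, against 79.6, 77.4 and 74.7 CPM at 6 h (log2 fold change -2.43 ± 0.24 SE, adjusted p = 1.5e-07). Casp8, the initiator caspase of death receptors, which also holds necroptosis in check, had 81.4, 92.0 and 95.4 CPM at 24 h, against 373, 294 and 276 CPM at 6 h (log2 fold change -1.81 ± 0.21 SE, adjusted p = 1.6e-06). Casp4, the mouse caspase-11 that senses bacterial lipopolysaccharide in the cytosol, had 8.57, 7.34 and 8.63 CPM at 24 h, against 87.2, 43.6 and 42.1 CPM at 6 h (log2 fold change -2.82 ± 0.41 SE, adjusted p = 2.6e-05). The fall of Casp4 was the steepest of these. Mlkl, the pore protein downstream of Ripk3, had 16.2, 10.2 and 18.0 CPM at 24 h, against 45.6, 49.9 and 45.0 CPM at 6 h (log2 fold change -1.66 ± 0.38 SE, adjusted p = 0.0017). Gsdmd, the pore protein of pyroptosis, had 295, 378 and 364 CPM at 24 h, against 649.5, 616 and 617 CPM at 6 h (log2 fold change -0.86 ± 0.14 SE, adjusted p = 8.4e-05). The 3 libraries at 24 h lay below all 3 at 6 h for each of the 5 genes. The call of Mlkl was lost with the pancreas score (adjusted p = 0.08) or the clock score (adjusted p = 0.054) as a covariate. Without 6 h replicate 3 no member was called higher.

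More interferon-stimulated genes fell than rose, but not under every setting. Of 38 tested members 11 fell and 1 (Ifit3) rose, with a median of -0.65; leaving out 6 h replicate 1 gave 7 falls, and on log2(FPKM + 1) 4 falls and 2 rises. There were 2, 0 and 5 rises and 3, 6 and 4 falls in the covariate fits, so that with the clock score the balance turned. The single rise was lost without 24 h replicate 1 or 3 or 6 h replicate 2 or 3, and became 2 without 24 h replicate 2. Gbp2, a GTPase that coats vacuoles of intracellular pathogens, had 3.73, 2.25 and 3.90 CPM at 24 h, against 34.6, 24.2 and 32.0 CPM at 6 h (log2 fold change -3.20 ± 0.41 SE, adjusted p = 4.4e-06). Cxcl9, the chemokine that draws T cells through CXCR3, had 2.32, 0.522 and 1.73 CPM at 24 h, against 11.0, 9.87 and 10.1 CPM at 6 h (log2 fold change -2.76 ± 0.38 SE, adjusted p = 1.2e-05). Zbp1, a sensor of Z-form nucleic acids that binds Ripk3, had 47.3, 37.7 and 73.4 CPM at 24 h, against 291, 307 and 283 CPM at 6 h (log2 fold change -2.48 ± 0.34 SE, adjusted p = 1.3e-05). The groups of these 3 genes do not overlap. Oas1a, an activator of RNase L, had 60.5, 54.4 and 117 CPM at 24 h, against 252, 213 and 194 CPM at 6 h (log2 fold change -1.50 ± 0.35 SE, adjusted p = 0.0021), a call that the pancreas score (adjusted p = 0.12) and the clock score (adjusted p = 0.11) as covariates removed. The paralogue Oas1e moved the other way, with 6.41, 7.68 and 8.44 CPM at 24 h, against 0, 0 and 0.0541 CPM at 6 h (log2 fold change 8.52 ± 0.75 SE, adjusted p = 4.4e-08); without 6 h replicate 3, the one library in that group with counts, its fitted value was 12.15, which then depends on the prior count, and without 6 h replicate 2 it was 7.91. How the submitters counted any reads shared among the Oas1 paralogues is not given, and whether reads were shared was not tested. Gbp2 is shown with its promoter because the gene fell and its window holds GAAANNGAA, letters that lie within the interferon-stimulated response element. It lies at chr3:142620413-142620712 on the plus strand (GRCm38.p6, RefSeq), capitals mark the match on either strand, and 8.56% of all windows hold the motif. The window of Oas1a held 2 matches and that of Cxcl9 1.
Gbp2: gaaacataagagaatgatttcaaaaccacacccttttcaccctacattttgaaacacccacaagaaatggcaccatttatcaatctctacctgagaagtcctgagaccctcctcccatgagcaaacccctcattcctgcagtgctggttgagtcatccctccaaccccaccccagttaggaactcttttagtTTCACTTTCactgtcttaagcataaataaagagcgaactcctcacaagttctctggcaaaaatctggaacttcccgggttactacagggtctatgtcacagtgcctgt

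Genes of antigen presentation gave few calls. No gene of 10 tested in MHC class II presentation was called higher (1 at an unadjusted p under 0.05 and 1 by DESeq2) or lower (1 at an unadjusted p under 0.05 and 1 by DESeq2) by edgeR. Leaving out 24 h replicate 1 gave 1 rise, leaving out 24 h replicate 2 gave 2 falls, and leaving out 24 h replicate 3 gave 1 rise and 1 fall. Among 20 tested genes of MHC class I presentation 5 (H2-D1, H2-T23, Psmb8, Psmb10 and H2-Q1) fell and none was called higher (0 at an unadjusted p under 0.05 and 0 by DESeq2); on log2(FPKM + 1) 1 fell and 4 rose, and leaving out 24 h replicate 1 or 2 or 6 h replicate 2 gave 3 falls each. The class I list had 0, 1 and 0 rises and 2, 3 and 2 falls in the covariate fits. H2-D1, a classical class I heavy chain, had 1156, 1526 and 1433 CPM at 24 h, against 3025, 2891 and 2859 CPM at 6 h (log2 fold change -1.09 ± 0.15 SE, adjusted p = 8.7e-06). Reads of class I genes are shared among near-identical copies. None of 19 tested T cell and intraepithelial lymphocyte genes was called higher (0 at an unadjusted p under 0.05 and 0 by DESeq2) or lower (0 at an unadjusted p under 0.05 and 0 by DESeq2) by edgeR, and their summed level overlapped, with 475, 717 and 419 CPM at 24 h, against 529, 427 and 565 CPM at 6 h.

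Targets of p53 gave small changes. Cdkn1a, which encodes the cell cycle inhibitor p21, had 209, 247 and 252 CPM at 24 h, against 363, 354 and 292 CPM at 6 h (log2 fold change -0.51 ± 0.18 SE, adjusted p = 0.034). Ccng1, cyclin G1, had 88.5, 80.5 and 86.6 CPM at 24 h, against 115, 121 and 107 CPM at 6 h (log2 fold change -0.42 ± 0.15 SE, adjusted p = 0.031). Leaving out any 1 of 24 h replicates 1 to 3 or 6 h replicates 1 or 2 ended both calls, with log2 fold changes between -0.56 and -0.43 for Cdkn1a and between -0.45 and -0.38 for Ccng1, and on log2(FPKM + 1) Ccng1 stood at 0.04 and Cdkn1a at -0.05, adjusted p = 0.84. The covariate fits ended both calls too. Mdm2, the ubiquitin ligase that p53 induces against itself, had 46.1, 46.3 and 41.8 CPM at 24 h, against 49.7, 43.7 and 38.1 CPM at 6 h (log2 fold change 0.03 ± 0.17 SE, adjusted p = 0.91), with the groups overlapping, though on log2(FPKM + 1) it was called higher (0.45, adjusted p = 0.0058). For comparison, untreated controls averaged 413 ± 10.9 CPM of Cdkn1a, 19.5 ± 2.38 CPM of Ccng1 and 51.1 ± 10.2 CPM of Mdm2 (SD, n = 3). Over the whole list 6 of 26 tested targets rose, beside 18.9% of all tested genes, and 2 (Cdkn1a and Ccng1) fell. On log2(FPKM + 1) 19 rose and 0 fell, and the covariate fits gave 4, 3 and 4 rises and 0, 0 and 0 falls. Without 6 h replicate 2, 3 rose and 1 fell, and no fall was called without 24 h replicate 1, 2 or 3 or 6 h replicate 1. Dcxr, a xylulose reductase, had 21.2, 22.1 and 25.1 CPM at 24 h, against 10.4, 11.1 and 12.2 CPM at 6 h (log2 fold change 1.02 ± 0.11 SE, adjusted p = 9.8e-07). Xpc, which recognises bulky DNA lesions, had 7.68, 7.17 and 5.55 CPM at 24 h, against 3.96, 3.16 and 4.68 CPM at 6 h (log2 fold change 0.79 ± 0.18 SE, adjusted p = 0.0017). Sesn1, a stress-induced inhibitor of mTORC1, had 78.8, 73.2 and 73.0 CPM at 24 h, against 44.8, 45.5 and 42.1 CPM at 6 h (log2 fold change 0.76 ± 0.19 SE, adjusted p = 0.003). Of 14 tested genes of DNA repair and damage signalling 5 (Pcna, Xrcc1, Trp53, Parp1 and Xrcc6) rose, none was called lower (0 at an unadjusted p under 0.05 and 0 by DESeq2), and 3 rose without 24 h replicate 1, and 2, 0 and 1 in the covariate fits.

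Some genes of S phase, mitosis and crypt stem cells rose, those of mitosis in a share close to that of all tested genes. The number of stem cell calls hung on single libraries. Of 17 tested replication genes 6 rose and 1 (Ccne2) fell. Mcm6, a subunit of the replicative helicase, had 16.7, 10.4 and 14.3 CPM at 24 h, against 3.57, 3.22 and 4.51 CPM at 6 h (log2 fold change 1.87 ± 0.26 SE, adjusted p = 1.4e-05). The replication list had 5, 2 and 4 rises and 1, 0 and 1 falls in the covariate fits. The single fall was lost without 24 h replicate 1. Of 10 tested mitosis genes 2 (Plk1 and Birc5) rose, a share close to the 18.9% of all tested genes, and 1 (Nusap1) fell. Rises numbered 4 without 6 h replicate 1, 7 without that library and 24 h replicate 2, 7 on log2(FPKM + 1) and 2, 1 and 1 in the covariate fits. Plk1, the polo-like kinase of mitotic entry, had 8.27, 4.82 and 6.89 CPM at 24 h, against 3.96, 0.966 and 1.65 CPM at 6 h (log2 fold change 1.61 ± 0.34 SE, adjusted p = 0.00098), and its value was 2.36 without 6 h replicate 1; the call was lost when the 6 libraries were fitted alone (1.57, adjusted p = 0.061). Nusap1, a spindle protein, had 1.54, 0.704 and 1.60 CPM at 24 h, against 10.8, 16.9 and 13.5 CPM at 6 h (log2 fold change -3.42 ± 0.66 SE, adjusted p = 0.00041). Plk1 was higher and Nusap1 lower in every 24 h library than in any 6 h library. Mki67, the proliferation marker Ki-67, had 15.8, 4.05 and 9.34 CPM at 24 h, against 8.87, 3.04 and 3.53 CPM at 6 h (log2 fold change 0.92 ± 0.59 SE, adjusted p = 0.24), with overlapping groups; it was called on log2(FPKM + 1) (0.56, adjusted p = 0.043) and without both 24 h replicate 2 and 6 h replicate 1 (1.94, adjusted p = 0.034). Among 16 tested crypt stem cell and Wnt target genes 8 rose and 2 (Prom1 and Bmi1) fell, with a median of 1.04, but 3 rose without 24 h replicate 1, 4 without 6 h replicate 2, 3 without 6 h replicate 3 and 5, 1 and 2 in the covariate fits. Olfm4, a secreted marker of crypt base cells, had 29.0, 3.03 and 12.8 CPM at 24 h, against 1.61, 0 and 0.447 CPM at 6 h (log2 fold change 4.47 ± 1.39 SE, adjusted p = 0.016). The call of Olfm4 was lost with the stromal (1.60, adjusted p = 0.43) or clock score (2.45, adjusted p = 0.36) and when the 6 libraries were fitted alone (4.44, adjusted p = 0.051). It was also lost without 24 h replicate 1 (3.55, adjusted p = 0.066), 6 h replicate 2 (3.87, adjusted p = 0.052) or 6 h replicate 3 (4.24, adjusted p = 0.062), and its value was 6.09 without 6 h replicate 1. Myc, a Wnt target and growth regulator, had 7.56, 1.699 and 2.54 CPM at 24 h, against 0.507, 0.0502 and 0.365 CPM at 6 h (log2 fold change 3.69 ± 0.72 SE, adjusted p = 0.00049), or 2.80 without 24 h replicate 1. Prom1, a membrane glycoprotein of crypt cells, had 15.5, 9.54 and 9.40 CPM at 24 h, against 47.2, 42.4 and 62.7 CPM at 6 h (log2 fold change -2.14 ± 0.31 SE, adjusted p = 1.8e-05). The stem cell receptor Lgr5 was below the filter for testing, with 1.55, 0.134 and 0.457 CPM at 24 h, against 0.203, 0.151 and 0.0677 CPM at 6 h.

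Genes linked to the regenerating, fetal-like epithelium fell more often than they rose. Of 18 tested members 8 fell and 2 (Areg and Ereg) rose, with a median of -0.63, and without 24 h replicate 3 there was 1 rise. Sprr2a1, a small proline-rich protein that binds bacteria, had 436, 471 and 535 CPM at 24 h, against 5097, 6610.0 and 7044 CPM at 6 h (log2 fold change -3.70 ± 0.34 SE, adjusted p = 8.4e-08). The groups of Sprr2a1 do not overlap. Il33, an alarmin, had 23.2, 22.8 and 20.2 CPM at 24 h, against 64.0, 106 and 86.6 CPM at 6 h (log2 fold change -1.95 ± 0.23 SE, adjusted p = 2.2e-06), and Anxa2, a phospholipid-binding annexin, had 588, 656 and 671 CPM at 24 h, against 1728, 1510.0 and 1519 CPM at 6 h (log2 fold change -1.31 ± 0.18 SE, adjusted p = 1.5e-05). Clu, a chaperone that marks revival stem cells, had 2.25, 6.92 and 2.79 CPM at 24 h, against 40.8, 14.9 and 8.55 CPM at 6 h (log2 fold change -2.42 ± 0.72 SE, adjusted p = 0.013). The groups of Clu do not overlap, but its call was lost without 24 h replicate 1 (adjusted p = 0.061), 24 h replicate 3 (adjusted p = 0.055) or 6 h replicate 1 (-1.54, adjusted p = 0.11), and its value was -3.09 without 24 h replicate 2. The stromal (-2.23, adjusted p = 0.056) and clock score (-2.20, adjusted p = 0.1) also ended it. Several members, Sprr2a1 and Il33 among them, are also known as defence or alarm genes.

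Genes of detoxification rose. Of 30 tested members of the drug metabolism and export list, 16 rose, where 18.9% of all tested genes did, and 3 (Abcg2, Nr1i2 and Ces2e) fell, with a median of 1.41. Falls numbered 1 without 24 h replicate 1 and 1 without 6 h replicate 1, and 9 genes were called higher with the pancreas score as a covariate. The summed level of the list was 11978, 15384 and 12912 CPM at 24 h, against 8247, 8618 and 8285 CPM at 6 h. The 3 untreated controls had 15883, 17937 and 17991 CPM, above every library of both groups. Gstm3, a glutathione transferase, had 317, 438 and 442 CPM at 24 h, against 3.94, 1.38 and 3.59 CPM at 6 h (log2 fold change 7.07 ± 0.75 SE, adjusted p = 5.2e-07). Abcb1a, the P-glycoprotein efflux pump, had 214, 359 and 236 CPM at 24 h, against 14.4, 11.3 and 15.2 CPM at 6 h (log2 fold change 4.30 ± 0.32 SE, adjusted p = 5.4e-09), and Abcc2, which exports conjugates to the lumen, had 517, 579.9 and 467 CPM at 24 h, against 52.0, 50.0 and 50.5 CPM at 6 h (log2 fold change 3.36 ± 0.37 SE, adjusted p = 7.7e-07). Cyp2b10, a cytochrome P450 induced through the receptor CAR, had 419, 437 and 357 CPM at 24 h, against 57.9, 49.8 and 36.1 CPM at 6 h (log2 fold change 3.08 ± 0.40 SE, adjusted p = 5.9e-06). Both pumps were measured in every library of both groups. Of the glucuronosyltransferases, Ugt2b34 had 760.2, 743 and 701 CPM at 24 h, against 157, 108 and 117 CPM at 6 h (log2 fold change 2.53 ± 0.21 SE, adjusted p = 2.9e-08) and Ugt2b35 had 41.4, 32.9 and 31.8 CPM at 24 h, against 2.10, 1.82 and 1.89 CPM at 6 h (log2 fold change 4.19 ± 0.67 SE, adjusted p = 6.3e-05). Genes of the Ugt2b cluster are similar in sequence, and their counts may share reads. In all of these the 24 h libraries lay above all 6 h libraries.

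Cyp1a1, the cytochrome P450 that the aryl hydrocarbon receptor induces, had the largest rise by the naming rule. It had 202, 30.5 and 35.8 CPM at 24 h, against 0, 0.151 and 0.311 CPM at 6 h (log2 fold change 9.10 ± 1.48 SE, adjusted p = 7.4e-05). The 24 h libraries were uneven: without 24 h replicate 1 the value was 7.67, and without 6 h replicate 3 it was 10.03. Controls averaged 30.0 ± 32.3 CPM (SD, n = 3), and all 3 control libraries lay above the 6 h libraries. The promoter window of Cyp1a1 is shown because the receptor binds GCGTG, which occurs once in it, in capitals, searched on both strands. It lies at chr9:57697363-57697662 on the plus strand (GRCm38.p6, RefSeq), and 32.4% of all windows hold this short motif.
Cyp1a1: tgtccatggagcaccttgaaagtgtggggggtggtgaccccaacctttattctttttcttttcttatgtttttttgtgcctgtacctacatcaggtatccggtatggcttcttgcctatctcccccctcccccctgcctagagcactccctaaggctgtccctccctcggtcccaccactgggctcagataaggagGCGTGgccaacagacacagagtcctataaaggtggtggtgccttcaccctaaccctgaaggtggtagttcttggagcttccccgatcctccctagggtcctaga

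Further oxidoreductases and transporters filled the list of largest and most certain rises. The aldo-keto reductases Akr1c19 and Akr1c14, which reduce steroids and other ketones, had 147, 100.4 and 123 CPM at 24 h, against 1.49, 3.59 and 2.81 CPM at 6 h (log2 fold change 5.55 ± 0.92 SE, adjusted p = 8.9e-05), and 28.9, 9.90 and 17.2 CPM at 24 h, against 0.794, 0.226 and 1.12 CPM at 6 h (log2 fold change 4.71 ± 0.83 SE, adjusted p = 0.00017). Adh4, an alcohol dehydrogenase that oxidises retinol, had 19.2, 16.1 and 24.3 CPM at 24 h, against 0.777, 1.22 and 0.298 CPM at 6 h (log2 fold change 4.69 ± 0.64 SE, adjusted p = 1.1e-05). These reductases and dehydrogenases were lower in all 6 h libraries. The monoamine oxidases, which break down serotonin and dietary amines, rose together: Maob had 91.7, 101 and 110.4 CPM at 24 h, against 9.48, 3.16 and 3.11 CPM at 6 h (log2 fold change 4.27 ± 0.44 SE, adjusted p = 3.6e-07) and Maoa had 700.1, 739.9 and 718 CPM at 24 h, against 207, 157 and 171 CPM at 6 h (log2 fold change 2.01 ± 0.11 SE, adjusted p = 4.2e-10). Leaving out 6 h replicate 1, the value of Maob was 5.02. Fmo5, a flavin monooxygenase, had 309, 394 and 327 CPM at 24 h, against 62.8, 64.9 and 48.3 CPM at 6 h (log2 fold change 2.55 ± 0.15 SE, adjusted p = 4.2e-10). Fmo5 was among the most certain rises by its p. Aco1, the cytosolic aconitase that also acts as an iron sensor, had 228, 279 and 244 CPM at 24 h, against 66.7, 65.6 and 65.3 CPM at 6 h (log2 fold change 1.93 ± 0.12 SE, adjusted p = 4.6e-10). Abhd17a, a depalmitoylating enzyme, had 139, 147 and 146 CPM at 24 h, against 39.7, 48.2 and 44.1 CPM at 6 h (log2 fold change 1.71 ± 0.11 SE, adjusted p = 4.8e-10). The 24 h libraries lay above the 6 h libraries for each of them.

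Membrane transport changed in both directions. Slc28a1, a nucleoside importer, had 170.2, 232 and 196 CPM at 24 h, against 9.45, 7.45 and 8.52 CPM at 6 h (log2 fold change 4.56 ± 0.29 SE, adjusted p = 5.2e-10). Slc5a4a, of the sodium-glucose cotransporter family, had 104, 149 and 149 CPM at 24 h, against 4.87, 3.58 and 1.83 CPM at 6 h (log2 fold change 5.29 ± 0.46 SE, adjusted p = 3.8e-08). The water channel Aqp8 had 19.3, 4.88 and 8.35 CPM at 24 h, against 0.456, 0.1004 and 0 CPM at 6 h (log2 fold change 5.92 ± 1.299 SE, adjusted p = 0.0016). Aqp8 was close to 0 in all 6 h libraries, and its value was 5.20 without 24 h replicate 1, 7.69 without 6 h replicate 1 and 5.31 without 6 h replicate 3. Slc51b, a subunit of the basolateral bile acid exporter, fell, with 46.9, 67.2 and 55.9 CPM at 24 h, against 683, 593 and 540.1 CPM at 6 h (log2 fold change -3.42 ± 0.23 SE, adjusted p = 1.9e-09). None of its 24 h libraries came near the 6 h level. Lrrc3, a leucine-rich repeat membrane protein, had 16.3, 28.1 and 14.3 CPM at 24 h, against 0.186, 1.66 and 1.38 CPM at 6 h (log2 fold change 4.17 ± 0.63 SE, adjusted p = 3.3e-05). Pgs1, the mitochondrial enzyme that starts cardiolipin synthesis, fell, with 18.4, 19.4 and 17.8 CPM at 24 h, against 105, 89.7 and 86.3 CPM at 6 h (log2 fold change -2.34 ± 0.14 SE, adjusted p = 4.6e-10). Of 35 tested genes of brush border and absorption 7 rose, a share close to the 18.9% of all tested genes, and 2 (Mgam and Slc7a9) fell, and on log2(FPKM + 1) 24 rose and 0 fell, with 3, 4 and 5 rises and 2, 1 and 3 falls in the covariate fits. Falls numbered 1 without 24 h replicate 3. Lct, lactase, had 2579, 3296 and 2433 CPM at 24 h, against 1019, 896 and 848 CPM at 6 h (log2 fold change 1.59 ± 0.21 SE, adjusted p = 8.2e-06). Mttp, which loads lipid onto apolipoprotein B, had 3499.6, 3467 and 3345 CPM at 24 h, against 2642, 2309.8 and 2160.0 CPM at 6 h (log2 fold change 0.54 ± 0.11 SE, adjusted p = 8e-04).

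Genes of fatty acid oxidation rose more often than they fell. Of 22 tested genes of fatty acid oxidation and ketogenesis 13 rose and 1 (Acadl) fell, with a median of 0.72, and 5 were called higher with the pancreas score as a covariate, 6 with the stromal score, 6 with the clock score and 6 without both 24 h replicate 2 and 6 h replicate 1. Cpt1a, the carnitine transferase that admits fatty acids to mitochondria, had 70.6, 62.8 and 60.0 CPM at 24 h, against 16.8, 19.2 and 23.3 CPM at 6 h (log2 fold change 1.71 ± 0.32 SE, adjusted p = 0.00034). Acaa2, the thiolase of the mitochondrial cycle, had 205, 212 and 267 CPM at 24 h, against 31.1, 53.6 and 59.6 CPM at 6 h (log2 fold change 2.24 ± 0.49 SE, adjusted p = 0.0013). Acadm, the medium-chain dehydrogenase, had 86.4, 94.8 and 91.7 CPM at 24 h, against 52.9, 58.6 and 47.6 CPM at 6 h (log2 fold change 0.78 ± 0.10 SE, adjusted p = 4.5e-06). All 3 were higher in every 24 h library than in any 6 h library. Abcd3, which imports fatty acids into peroxisomes, had 268, 306 and 270.3 CPM at 24 h, against 68.8, 81.1 and 83.9 CPM at 6 h (log2 fold change 1.85 ± 0.11 SE, adjusted p = 4.6e-10). Of 11 tested gluconeogenesis genes 5 (Gpt, Mdh1, Slc37a4, Fbp1 and Pck1) rose and 3 fell, Tat and Pcx among them, and 3 rose without 6 h replicate 2, with 2, 3 and 2 rises and 2, 2 and 2 falls in the covariate fits. Pck1, the rate-limiting carboxykinase, had 257, 366 and 237 CPM at 24 h, against 33.8, 25.2 and 16.7 CPM at 6 h (log2 fold change 3.51 ± 0.64 SE, adjusted p = 0.00026). Fbp1, fructose bisphosphatase, had 55.2, 31.0 and 32.9 CPM at 24 h, against 10.3, 14.01 and 16.2 CPM at 6 h (log2 fold change 1.56 ± 0.30 SE, adjusted p = 0.00036). Neither gene overlapped between the groups. Targets of the oxidative stress factor NRF2 split, with 6 of 19 tested rising and 2 (Gpx2 and Gsr) falling. Nqo1, a quinone reductase, had 22.2, 18.1 and 22.6 CPM at 24 h, against 3.72, 1.59 and 3.87 CPM at 6 h (log2 fold change 2.78 ± 0.51 SE, adjusted p = 0.00026). Gclm, the modifier subunit of glutathione synthesis, had 81.2, 38.1 and 90.4 CPM at 24 h, against 8.38, 30.4 and 19.1 CPM at 6 h (log2 fold change 1.86 ± 0.34 SE, adjusted p = 0.00025). The 24 h libraries lay above the 6 h libraries for both. Gpx2, the glutathione peroxidase of the gut epithelium, had 57.6, 43.1 and 39.4 CPM at 24 h, against 418, 593 and 555 CPM at 6 h (log2 fold change -3.48 ± 0.53 SE, adjusted p = 4e-05). Gsr, glutathione reductase, had 45.0, 37.8 and 45.0 CPM at 24 h, against 126, 126 and 142 CPM at 6 h (log2 fold change -1.63 ± 0.29 SE, adjusted p = 0.00017).

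The secretory lineages separated. Goblet cell genes rose in 12 of 18 tested cases and fell in 1, with a median of 1.41, and the fall was Muc13, given above. Atoh1, the transcription factor of the secretory fate, had 10.3, 10.9 and 13.7 CPM at 24 h, against 4.06, 2.20 and 2.42 CPM at 6 h (log2 fold change 2.01 ± 0.35 SE, adjusted p = 0.00015). Fcgbp, a mucus-binding protein, had 4178, 4575 and 3556 CPM at 24 h, against 2044, 675 and 920.1 CPM at 6 h (log2 fold change 1.76 ± 0.30 SE, adjusted p = 0.00013), and 2.38 without 6 h replicate 1. Capn9, a calpain of mucous cells, had 13.0, 13.6 and 12.9 CPM at 24 h, against 5.003, 1.76 and 2.72 CPM at 6 h (log2 fold change 2.07 ± 0.32 SE, adjusted p = 4.7e-05). Each was higher in all 24 h libraries. Tuft cell genes fell in 8 of 12 tested cases, and none was called higher (0 at an unadjusted p under 0.05 and 0 by DESeq2), with a median of -1.03, and 5 fell without 6 h replicate 1 and 5, 6 and 5 in the covariate fits. Trpm5, the cation channel of taste-like signalling, had 13.3, 13.4 and 11.3 CPM at 24 h, against 38.6, 25.2 and 32.1 CPM at 6 h (log2 fold change -1.34 ± 0.27 SE, adjusted p = 0.00061). Trpm5 was lower in all 24 h libraries. Of 15 tested enteroendocrine genes 5 (Pyy, Pcsk1, Cpe, Tph1 and Chga) fell and 1 (Gcg) rose, with a median of -0.57, and 3, 4 and 3 fell in the covariate fits. Pcsk1, the prohormone convertase, had 6.51, 10.7 and 9.76 CPM at 24 h, against 35.6, 28.3 and 27.8 CPM at 6 h (log2 fold change -1.76 ± 0.24 SE, adjusted p = 1.1e-05). Cpe, carboxypeptidase E, had 13.7, 12.8 and 10.1 CPM at 24 h, against 38.2, 35.0 and 45.7 CPM at 6 h (log2 fold change -1.70 ± 0.23 SE, adjusted p = 9.5e-06). Gcg, which encodes the glucagon-like peptides, rose, with 5.85, 3.63 and 5.37 CPM at 24 h, against 1.89, 0.765 and 1.03 CPM at 6 h (log2 fold change 2.01 ± 0.42 SE, adjusted p = 0.00078).

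Paneth cell genes were called in 3 of 21 tested cases (Defa24, Defa17 and Clps), all higher (none lower, 0 at an unadjusted p under 0.05 and 0 by DESeq2), with a median of 1.93. Rises numbered 15 on log2(FPKM + 1), 7 by DESeq2, 0 when the 6 libraries were fitted alone and 1, 1 and 1 in the covariate fits. Clps, the colipase of fat digestion, is also on the exocrine pancreas list. The count was 19 without 6 h replicate 1 and 1 without 24 h replicate 1, 6 h replicate 2 or 6 h replicate 3. Lyz1, Paneth lysozyme, had 324, 61.6 and 144 CPM at 24 h, against 102, 9.11 and 17.9 CPM at 6 h (log2 fold change 2.04 ± 0.81 SE, adjusted p = 0.055), and the groups overlapped because 6 h replicate 1 stood above 24 h replicate 2. Lyz1 was called by DESeq2 (2.01, adjusted p = 0.032), on log2(FPKM + 1) (2.85, adjusted p = 0.003), without 24 h replicate 2 (2.45, adjusted p = 0.033), without 6 h replicate 1 (3.72, adjusted p = 0.003) and without both (4.12, adjusted p = 0.0017). Genes of B and plasma cells rose in 7 of 12 tested cases and fell in 1 (Xbp1). Rises numbered 4 without 24 h replicate 1 and 4 without 6 h replicate 2, and 1 with the stromal or with the clock score as a covariate, and the single fall was lost without 24 h replicate 3 or 6 h replicate 3. The summed level of the list was 1378, 395 and 1053 CPM at 24 h, against 292, 167 and 211 CPM at 6 h. Jchain, which joins IgA dimers, had 143, 29.4 and 94.1 CPM at 24 h, against 11.6, 0.728 and 3.03 CPM at 6 h (log2 fold change 4.12 ± 1.09 SE, adjusted p = 0.0059). Igha, the IgA heavy chain, had 610.2, 146 and 507 CPM at 24 h, against 54.9, 5.22 and 17.5 CPM at 6 h (log2 fold change 4.03 ± 1.13 SE, adjusted p = 0.0085). Without 6 h replicate 1 the values were 5.58 and 5.23. Both calls were lost with the stromal score (adjusted p = 0.19 for Jchain and 0.31 for Igha) and with the clock score (adjusted p = 0.19 and 0.32). Mzb1, a chaperone of antibody-secreting cells, had 1.85, 0.510 and 1.296 CPM at 24 h and no counts at 6 h, which makes it at least 86.3-fold higher against a floor of 3 counts over the 6 h group.

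Markers of some tissues around the epithelium differed between the time points, and their part in the changes above was not tested. The covariate fits given are no such test where the score moved with time. The exocrine pancreas sum lay above every library at 6 h in 24 h replicate 2 alone. The exocrine pancreas list, 37 genes of which some (Zg16, Reg1, Spink1) are also expressed by gut epithelium, had a summed level of 4934, 16224 and 4764 CPM at 24 h, against 4364, 4249 and 5539 CPM at 6 h. Of its 32 tested members 27 were called higher, but 5 without 24 h replicate 2 and 2, 28 and 6 in the covariate fits. The pancreas score is built from these same genes, so the count of 2 follows from its construction and is no test of them. Amy2a3, pancreatic amylase, had 13.99, 1218 and 24.6 CPM at 24 h, against 0.625, 3.85 and 2.81 CPM at 6 h (log2 fold change 7.42 ± 1.81 SE, adjusted p = 0.0043). Cpb1, carboxypeptidase B, had 4.69, 504 and 8.08 CPM at 24 h, against 0, 0.0502 and 0.284 CPM at 6 h (log2 fold change 10.52 ± 2.12 SE, adjusted p = 0.0013). Without 24 h replicate 2 Amy2a3 stood at 2.98 (adjusted p = 0.074) and Cpb1 at 5.77, and Cpb1 at 12.49 without 6 h replicate 3. The clock score ended both calls (5.02, adjusted p = 0.14 for Amy2a3 and 7.03, adjusted p = 0.27 for Cpb1). At 6 h, 6 of the 37 genes had no counts, namely Amy2a2, Cela3a, Ctrc, Prss1, Prss3 and Ptf1a, and none was without counts at 24 h. The fibroblast and collagen list, 27 genes of which 5 were tested and 4 called higher (3, 2 and 1 in the covariate fits), summed to 101, 70.5 and 74.3 CPM at 24 h, against 23.003, 6.40 and 8.28 CPM at 6 h. The stromal score is built from this list and the smooth muscle list, so the stromal counts given for them are no test of either. Fibroblast markers that were low elsewhere could pass the FPKM filter through the libraries at 24 h after 6 Gy alone. Their share called higher is thus not independent of the filter. Col1a1 had 22.2, 27.1 and 16.4 CPM at 24 h, against 0.254, 0 and 0 CPM at 6 h (log2 fold change 8.14 ± 1.44 SE, adjusted p = 0.00018), and its value ranged from 7.50 without 6 h replicate 2 to 13.72 without 6 h replicate 1, a fitted value that depends on the prior count since the other 6 h libraries had no counts, and was 7.52 without 6 h replicate 3. Lum and Fbn1 had no counts at 6 h. The smooth muscle list, 20 genes with 13 tested, 4 called higher and 1 lower (9, 1 and 1 rises and 0, 1 and 0 falls in the covariate fits), summed to 597, 458 and 384 CPM at 24 h, against 242, 255 and 279.6 CPM at 6 h, and leaving out 24 h replicate 1 or 6 h replicate 2 reduced the rises to 1. The single fall was lost without any 1 library but 6 h replicate 1. Mylk, myosin light chain kinase, had 189, 188 and 178 CPM at 24 h, against 44.9, 52.1 and 52.2 CPM at 6 h (log2 fold change 1.90 ± 0.16 SE, adjusted p = 2.9e-08). The enteric neuron and glia list, 15 genes, summed to 4.77, 3.88 and 2.998 CPM at 24 h, against 26.9, 21.8 and 26.9 CPM at 6 h. Most of the 6 h sum was the receptor Ret, the 1 gene tested, which had 2.30, 2.66 and 1.96 CPM at 24 h, against 22.7, 19.1 and 22.1 CPM at 6 h (log2 fold change -3.21 ± 0.47 SE, adjusted p = 2.4e-05). Elavl4, Nos1, Gfap and S100b had counts at 24 h and none at 6 h, Sox10 had counts at 6 h and none at 24 h, and Vip had none in either group.

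**Figure D3:**
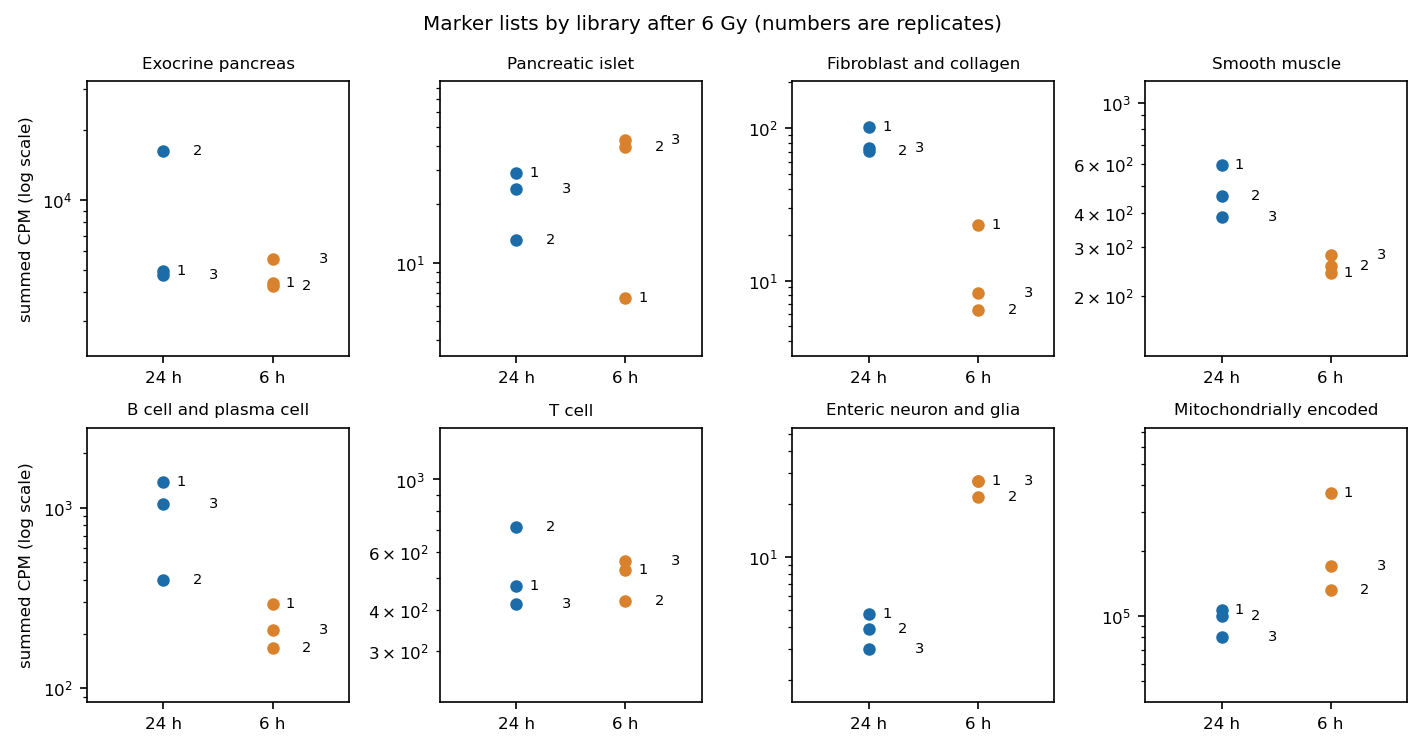
Summed CPM (log scale) of 8 marker lists in each library, 24 h left and 6 h right; numbers are replicates. Exocrine pancreas RNA stands out in 24 h replicate 2 (16224 CPM), fibroblast markers are higher in all 24 h libraries, and mitochondrial RNA is highest in 6 h replicate 1.

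Clock, hormone and energy genes also differed with the time point. A phase score set Nfil3, Arntl and Npas2 against Tef, Cry2, Dbp and the 3 Per genes (difference of mean log2 CPM). It was -0.44 to -0.19 at 24 h and 2.13 to 3.22 at 6 h. The hour of irradiation and sampling is not given in the sources used here, so time after irradiation and time of day cannot be told apart. Of 12 tested genes of the Dbp and Per phase 6 rose and none was called lower (0 at an unadjusted p under 0.05 and 0 by DESeq2), with a median of 1.26 and 2, 1 and 1 rises in the covariate fits. The clock score is this phase score and holds genes of the list, so its count is no test of them. Cry2, a repressor of the clock, had 13.2, 16.7 and 13.7 CPM at 24 h, against 4.78, 4.08 and 4.80 CPM at 6 h (log2 fold change 1.67 ± 0.22 SE, adjusted p = 5.2e-06). Dbp, an output transcription factor, had 18.9, 32.6 and 20.1 CPM at 24 h, against 1.27, 6.17 and 6.03 CPM at 6 h (log2 fold change 2.40 ± 0.97 SE, adjusted p = 0.06), and Arntl, the activator BMAL1, had 9.62, 10.4 and 12.7 CPM at 24 h, against 25.1, 18.7 and 19.7 CPM at 6 h (log2 fold change -0.96 ± 0.48 SE, adjusted p = 0.13); neither passed the test. Dbp was called when the 6 libraries were fitted alone (2.37, adjusted p = 0.023), by DESeq2 (2.39, adjusted p = 0.033) and on log2(FPKM + 1) (2.20, adjusted p = 0.0029), and Arntl when fitted alone (-0.99, adjusted p = 0.0072). Among 15 tested glucocorticoid targets and metallothioneins 6 fell and 2 (Sgk1 and Per1) rose, on log2(FPKM + 1) 4 fell and 5 rose. There were 1, 0 and 0 rises and 4, 5 and 4 falls in the covariate fits, and rises numbered 1 without 24 h replicate 3 and 0 without 6 h replicate 2 or 6 h replicate 3. Fkbp5, a chaperone that the glucocorticoid receptor induces, had 14.03, 13.2 and 30.2 CPM at 24 h, against 213, 239 and 176 CPM at 6 h (log2 fold change -3.45 ± 0.88 SE, adjusted p = 0.0043). Zbtb16, a zinc finger factor induced in the same way, had 0.148, 0.182 and 0.597 CPM at 24 h, against 12.9, 9.97 and 6.03 CPM at 6 h (log2 fold change -4.95 ± 1.24 SE, adjusted p = 0.0039), or -5.85 without 24 h replicate 3. Asns, the asparagine synthetase of the amino acid response, had 6.20, 5.44 and 4.93 CPM at 24 h, against 33.9, 27.4 and 23.9 CPM at 6 h (log2 fold change -2.36 ± 0.28 SE, adjusted p = 1.6e-06).

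Nuclear-encoded respiratory chain and ribosomal genes shifted by small amounts that depended on scaling, and mitochondrially encoded genes shifted by more, though not under every setting. Of 51 tested nuclear-encoded subunits and factors 20 fell and 1 (Ndufb3) rose, with a median of -0.28, but on log2(FPKM + 1) 1 fell and 10 rose, and 2 rose without 6 h replicate 2. The covariate fits gave 11, 17 and 24 falls. Cycs, cytochrome c, was lower on both scales, with 355, 299.6 and 342 CPM at 24 h, against 669.9, 836 and 737 CPM at 6 h (log2 fold change -1.17 ± 0.15 SE, adjusted p = 5.9e-06). Uqcrc1, a core subunit of complex III, had 342, 304 and 332 CPM at 24 h, against 435, 658 and 675 CPM at 6 h (log2 fold change -0.86 ± 0.16 SE, adjusted p = 0.00027), and -0.36 (adjusted p = 0.2) on log2(FPKM + 1). Of 15 tested mitochondrially encoded genes 10 fell, with a median of -1.28; 1 fell without 6 h replicate 1, and 5, 4 and 2 without 24 h replicates 1, 2 and 3 in turn. Falls of these numbered 2 on log2(FPKM + 1), 4 when the 6 libraries were fitted alone, 0 without both 24 h replicate 2 and 6 h replicate 1 and 0, 14 and 3 in the covariate fits. Of 78 tested cytosolic ribosomal protein genes 19 rose, beside 18.9% of all tested genes, and 1 (Rpl10) fell. On log2(FPKM + 1) 66 rose, 10 when the 6 libraries were fitted alone and 8, 0 and 0 in the covariate fits. The number of rises ranged from 3 without 6 h replicate 2 to 38 without 6 h replicate 1, with 5, 7, 30 and 9 without 6 h replicate 3 and 24 h replicates 1, 2 and 3. Falls numbered 2 without 24 h replicate 2.

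The change between 24 h and 6 h was then set against the same change after 15 Gy, measured in 6 other libraries that share none with this comparison. The clock score of the 15 Gy libraries was -3.22, -2.64 and -1.51 at 6 h, where the 6 Gy libraries had 2.13 to 3.22. At 24 h after 15 Gy it was 4.14, -0.28 and -0.28. Dose and clock phase thus moved together at 6 h and cannot be told apart in the differences below. The difference of the 2 changes passed the test in 3590 of 11118 genes (32.3%), being positive in 1642 (14.8%) and negative in 1948 (17.5%). A positive value means a more positive change after 6 Gy. On log2(FPKM + 1) 3014 were positive and 791 negative. In the 15 Gy pair 3575 genes were called, 2078 higher and 1497 lower at 24 h. The antimicrobial list fell in 12 of 16 tested genes after 6 Gy, while 1 fell and 1 rose after 15 Gy, and the difference was negative in 11 of 16. Of the death list 13 of 28 had a negative difference and 1 a positive one. For the goblet list the difference was positive in 12 of 18 and negative in 1, and for drug metabolism positive in 9 of 30 and negative in 1.

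The genes that led this difference were largely those of the defence block. After 15 Gy Fut2 had 3.41, 1.59 and 1.74 CPM at 24 h, against 1.38, 3.18 and 0.851 CPM at 6 h, a log2 fold change of 0.32 ± 0.45 where 6 Gy gave -8.27 ± 0.59 (difference -8.59 ± 0.71, adjusted p = 6.2e-08). After 15 Gy Duox2 had 153, 5.23 and 101 CPM at 24 h, against 10.3, 81.1 and 5.66 CPM at 6 h, a change of 1.42 ± 0.95 (difference -9.84 ± 1.56, adjusted p = 7.1e-05), and Duoxa2 changed by 2.02 ± 1.03 (difference -10.01 ± 1.68, adjusted p = 0.00012). The most negative difference was that of Saa1, -15.50 ± 2.57, adjusted p = 0.00011, followed by Tat, -10.88 ± 1.84, adjusted p = 0.00014. Nos2 gave -9.40 ± 2.04, adjusted p = 0.0013, Lcn2 -8.99 ± 1.14, adjusted p = 6.6e-06 and Ly6d -8.28 ± 1.38, adjusted p = 0.00012. For the lectins the difference was -3.40 ± 0.63, adjusted p = 0.00032 in Reg3b and -4.05 ± 0.66, adjusted p = 9.5e-05 in Reg3g. Casp4 had 54.8, 11.1 and 28.1 CPM at 24 h, against 10.2, 13.5 and 11.9 CPM at 6 h after 15 Gy, a rise of 1.40 ± 0.40 with adjusted p = 0.0094 (difference -4.22 ± 0.57, adjusted p = 1.3e-05), while Ripk3 changed by -0.37 ± 0.22 (difference -2.06 ± 0.32, adjusted p = 5.5e-05) and Casp8 by 0.08 ± 0.20 (difference -1.89 ± 0.29, adjusted p = 5.5e-05). The change of Socs3 after 15 Gy was -0.93 ± 0.33 on the log2 scale (difference -2.44 ± 0.47, adjusted p = 0.00045). Single libraries moved some of these differences by over 1.5 times in fold, and none of the calls named in this paragraph was lost. Fitted without 6 Gy 24 h replicate 1, the test gave -10.47 for Duox2 and -8.97 for Ly6d. Leaving out 6 Gy 24 h replicate 2 gave -10.29 for Tat and -10.19 for Nos2. The fit without 6 Gy 6 h replicate 1 gave -13.11 for Saa1, -9.88 for Tat, -8.13 for Lcn2, -7.67 for Ly6d and -7.91 for Nos2. Fitted without 15 Gy 24 h replicate 1, the test gave -14.08 for Saa1, -9.14 for Duox2, -10.02 for Tat, -9.02 for Duoxa2, -7.51 for Ly6d, -3.54 for Casp4 and -7.22 for Nos2. Leaving out 15 Gy 6 h replicate 1 gave -10.28 for Tat. The fit without 15 Gy 6 h replicate 2 gave -17.23 for Saa1, -11.85 for Duox2, -15.81 for Tat, -9.26 for Fut2, -12.24 for Duoxa2, -9.27 for Ly6d, -4.81 for Reg3g and -10.96 for Nos2.

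On the positive side stood Oas1e and genes of detoxification and metabolism. Oas1e had 4.34, 5.75 and 3.67 CPM at 24 h, against 23.5, 15.3 and 35.0 CPM at 6 h after 15 Gy, a change of -2.42 ± 0.47 (difference 10.95 ± 0.89, adjusted p = 6.2e-08). Ugt1a9, a glucuronosyltransferase, had 109, 86.9 and 101 CPM at 24 h, against 0.490, 8.02 and 31.7 CPM at 6 h after 6 Gy (log2 fold change 2.88 ± 1.37, adjusted p = 0.11, and on log2(FPKM + 1) 3.69, adjusted p = 0.003) and 0.614, 2.92 and 0 CPM at 24 h, against 227, 0.618 and 17.8 CPM at 6 h after 15 Gy (difference 8.98 ± 2.10, adjusted p = 0.0025). The 6 h libraries after 15 Gy were far apart for Ugt1a9. Cyp1a1 gave 6.91 ± 1.67, adjusted p = 0.0032, Akr1c19 6.22 ± 1.15, adjusted p = 0.00034 and Slc5a4a 5.44 ± 0.57, adjusted p = 8.9e-07. On log2(FPKM + 1) the call of Cyp1a1 was lost (2.78, adjusted p = 0.081). The exporter Abcc2 had 219, 822 and 359.5 CPM at 24 h, against 718, 576 and 535 CPM at 6 h after 15 Gy (difference 3.74 ± 0.49, adjusted p = 9.7e-06), and Cyp2b10 gave 3.62 ± 0.54, adjusted p = 3.5e-05. Pck1 had 148, 546 and 391 CPM at 24 h, against 902, 1459.5 and 680.1 CPM at 6 h after 15 Gy, a change of -1.49 ± 0.59 with adjusted p = 0.061 (difference 4.99 ± 0.87, adjusted p = 0.00019). Mt2, a metallothionein, gave 4.96 ± 1.23, adjusted p = 0.0038 and Jchain 4.89 ± 1.45, adjusted p = 0.013. With the clock score as a covariate the number of genes called for the difference was 1238, and the calls of Cyp1a1, Akr1c19, Jchain, Saa1, Duoxa2, Ly6d, Pck1, Reg3b, Reg3g, Casp8, Casp4, Ugt1a9, Mt2 and Nos2 were lost. Here too no call was lost without a single library, but sizes moved. Fitted without 6 Gy 24 h replicate 1, the test gave 5.48 for Cyp1a1. Leaving out 6 Gy 6 h replicate 1 gave 6.35 for Jchain and 5.69 for Mt2. The fit without 6 Gy 6 h replicate 2 gave 10.33 for Oas1e. Fitted without 6 Gy 6 h replicate 3, the test gave 7.83 for Cyp1a1, 14.57 for Oas1e and 10.63 for Ugt1a9. Leaving out 15 Gy 24 h replicate 1 gave 5.70 for Mt2. The fit without 15 Gy 24 h replicate 2 gave 8.68 for Akr1c19, 4.43 for Abcc2, 4.22 for Cyp2b10 and 10.88 for Ugt1a9. Fitted without 15 Gy 24 h replicate 3, the test gave 5.85 for Jchain. Leaving out 15 Gy 6 h replicate 1 gave 4.12 for Jchain and 5.86 for Ugt1a9. The fit without 15 Gy 6 h replicate 2 gave 9.58 for Ugt1a9. The Oas1e value without 6 Gy 6 h replicate 3 depends on the prior count.

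**Figure D4:**
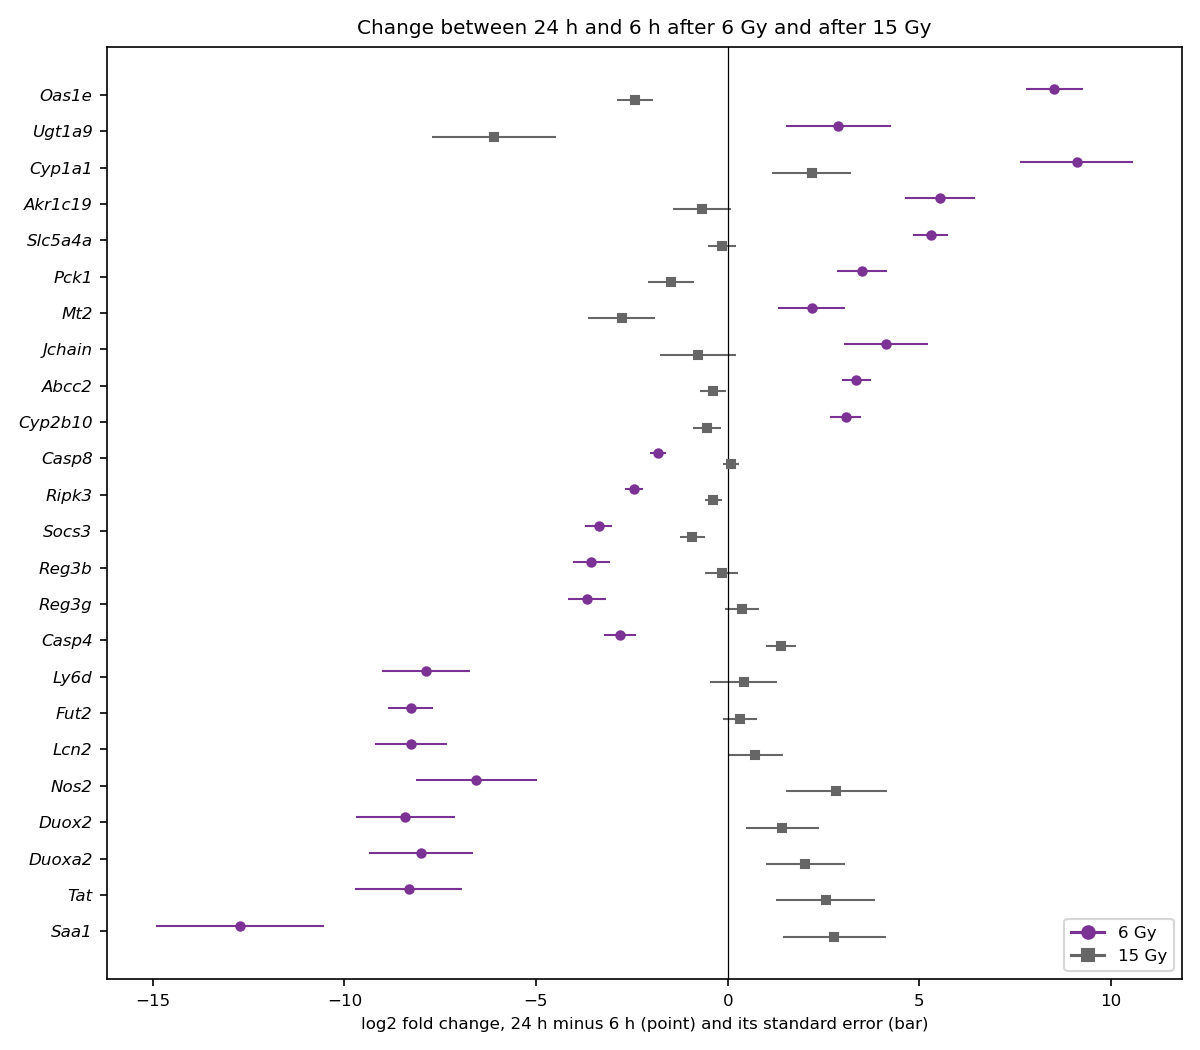
Log2 fold change between 24 h and 6 h (horizontal axis, bars standard errors) of the 24 genes given for the difference between doses, after 6 Gy (circles) and after 15 Gy (squares), ordered by the difference. Saa1, at the bottom, changed by -12.72 after 6 Gy and Oas1e, at the top, by 8.52.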

How the data were processed

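RNA-seq of mouse intestine was deposited by the submitters as read counts and FPKM values per gene in 27 libraries (9 groups of 3). Bowtie 0.12.2, HISAT2 2.0 and StringTie 1.3.0 are named in the submitters' processing notes with no role. The notes name mm8, but of the file's identifiers 55141 are in GENCODE vM21 and 94.2% of those have the same start and end, so coordinates are given as GRCm38. The deposited counts were not normalized, per the file headers and values; the deposited FPKM values are scaled by the authors for gene length and depth. Some genes are not reported here. The sources used here do not give strandedness or the treatment of shared reads.

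TMM-scaled counts went into quasi-likelihood F tests (edgeR version 4.0.16, R 4.3.3) in 1 fit over all libraries with 1 mean per group, for 11118 of 55401 genes that reached an FPKM of 1 in 3 or more libraries, and p-values were adjusted by Benjamini-Hochberg over all of them (called: under 0.05). A group has 3 libraries, so a gene high in 1 group alone could pass this FPKM filter through that group. 23888 genes had no counts. limma 3.58.1 and DESeq2 1.42.0 served as alternatives; limma used log2(FPKM + 1) and log2(FPKM + 0.1), so its fold changes understate those of low genes. Totals of 57438640 to 76615459 counts in these 6 libraries leave the spread between 3 libraries as the main limit. On simulated counts for the comparison of 24 h with 6 h, in 11118 genes with 200 changed, 15.9% of 1.5-fold, 47.1% of 2-fold and 77.6% of 4-fold changes were called, with 6 unchanged genes among 101 calls. Far fewer genes changed there than the 3912 called in the data. The adjusted p cutoff depends on that number, so these shares do not give the recovery in the comparison itself. Named genes are the 14 largest rises and falls and the 6 of each with the smallest p (called, groups not overlapping, mean FPKM of at least 5 in the higher group, without predicted genes, immune receptor segments and pancreas, fibroblast and smooth muscle lists), up to 5 genes with the smallest p per list, 16 fixed genes, and the 8 most positive and 8 most negative dose differences; further genes named beside small counts were chosen after their values were seen, as were Mlkl and the other 8 genes of the dose comparison. Members and lists were chosen with earlier results of these data known. Replicates differed by more than sampling noise (chi-square per degree of freedom 91.9 or more in every pair).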

Additional observations from a re-analysis of the deposited data

Results flagged for a closer look

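The change between 24 h and 6 h after 6 Gy differed from the change between 24 h and 6 h after 15 Gy in 3590 genes by the test of the difference itself. Among the genes described, the difference (log2 scale, 6 Gy minus 15 Gy) was -15.50 for Saa1, -10.88 for Tat, -10.01 for Duoxa2, -9.84 for Duox2, -9.40 for Nos2 and -8.99 for Lcn2. It was -8.59 for Fut2, -8.28 for Ly6d, -4.22 for Casp4, -4.05 for Reg3g and -3.40 for Reg3b. The values of the regulators and death genes were -2.44 for Socs3, -2.06 for Ripk3 and -1.89 for Casp8. Positive differences were 10.95 for Oas1e, 8.98 for Ugt1a9, 6.91 for Cyp1a1, 6.22 for Akr1c19 and 5.44 for Slc5a4a. They were 4.99 for Pck1, 4.96 for Mt2, 4.89 for Jchain, 3.74 for Abcc2 and 3.62 for Cyp2b10. The 4 groups share no library, but the 6 Gy 24 h libraries stand apart from the rest of the series in composition, and the part of this in the differences was not tested. The 6 h libraries of the doses also lay apart in clock score, at 2.13 to 3.22 after 6 Gy and -3.22 to -1.51 after 15 Gy. Dose and clock phase cannot be told apart there.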

How the results depend on the processing

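The number of called genes stayed within 1.5 times of 3912 under DESeq2 size factors (3914), no filter (3362) and DESeq2 (4293). So did the number with the compared libraries fitted alone (3611). That fit lost the excess of rises, with 1784 higher and 1827 lower. Calls ranged over 3064 to 3544 when single libraries were left out (1603 to 1965 higher, 1461 to 1579 lower). On log2(FPKM + 1) 4956 genes were higher and 626 lower, and on log2(FPKM + 0.1) 4749 and 604, with the median gene 0.38 and 0.51 higher at 24 h. Calls numbered 2164 with the pancreas score (1192 higher, 972 lower), 2355 with the stromal score (1173 and 1182) and 2363 with the clock score (1169 and 1194) as a covariate. For the difference between doses the ranges without single libraries were 3011 to 3539 calls (1310 to 1652 positive, 1701 to 1887 negative). There log2(FPKM + 1) gave 3014 positive and 791 negative, log2(FPKM + 0.1) 2907 and 896, and the clock score 1238 calls, 443 positive and 795 negative. The cause of these shifts was not tested. Signs turned for Mdm2 (-0.0081 in the compared libraries alone, -0.026, -0.14 and -0.12 with the pancreas, stromal and clock score, and -0.063 to 0.14 when single libraries were left out, -0.063 being without 6 h replicate 3), for Ccng1 (0.038 on log2(FPKM + 1) and 0.040 on log2(FPKM + 0.1)), for Mki67 (-0.50 with the stromal score) and, with the clock score, for Arntl (0.54) and Dbp (-0.80). Arntl and Dbp are part of the clock score, so their turns follow from its construction and are no test of them. Of the other values of named genes under alternatives other than leaving out single libraries, 1996 kept their direction and side of the threshold. Among the rest, 51 lost a call and 24 gained one. These numbers include the fits added after seeing the data. Same-numbered libraries did not deviate together throughout (correlations of 0.17, 0.20 and -0.05), so the numbers were not taken as pairs; the fit with the replicate number as a block called 3864 genes (2083 higher, 1781 lower) and 3529 for the difference between doses. Not every library correlated best with its own number. The fits added after seeing the data were those without both 24 h replicate 2 and 6 h replicate 1 and without the libraries of 6 Gy with CBLB502 (3732 calls). With 3 libraries per group, changes of under 2-fold are the ones that precision limits most.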

Other observations

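Several gene lists not described above held few calls. Of 24 tested genes of ER stress and the integrated stress response 2 (Sdf2l1 and Herpud1) were higher and 3 (Asns, Ppp1r15a and Xbp1) lower, and 1 was lower without 24 h replicate 3 or 6 h replicate 3; on log2(FPKM + 1) 8 were higher and 1 lower. Of 21 tested sterol synthesis genes 1 (Fdft1) was lower, 2 without 24 h replicate 1 and 0 without 24 h replicate 2, 24 h replicate 3 or 6 h replicate 1; on log2(FPKM + 1) 4 were higher. Of 13 tested myeloid genes 2 (Ly6g and Cd14) were lower, and 2 were higher without 24 h replicate 2 and 6 on log2(FPKM + 1). Markers of the proximal small intestine were higher in 3 (Lct, Bche and Cyp2c66) and lower in 2 (Adh6a and Gata4) of 14 tested genes, with 1 higher without 6 h replicate 1, and markers of the distal small intestine in 1 (Cubn) and 4 (Slc51b, Pyy, Slc10a2 and Ccl28) of 10 tested. Of 3 tested endothelial genes 2 (Tie1 and Lyve1) were lower, and of 3 tested mesothelial genes 1 (Krt19) was higher.

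Levels of 2 genes in the 6 Gy 6 h libraries stood apart from all others in the series, a comparison chosen after the values were seen. Ly6g had 1228 counts over the 3 libraries at 6 h after 6 Gy (5.28 to 7.01 CPM) and 165 counts over the other 24 (0 to 0.790 CPM). It may thus have passed the FPKM filter through those 3 libraries alone. Oas1e had 4 counts over the 3 libraries at 6 h after 6 Gy (0 to 0.0541 CPM) and 1.76 to 35.0 CPM in the other 24. Genes annotated as lincRNA, snoRNA and antisense were summed on counts scaled to library totals alone. CPM in these sums thus leaves out the trimmed-mean factor. On this scale each summed higher in the 24 h libraries than in any of the 21 libraries outside the 24 h groups after 6 Gy. The trimmed-mean factor was 1.23 to 1.36 at 24 h and 0.71 to 1.09 over the 21. Applying it would lower the 24 h sums, and whether they would still stand apart was not tested. The snoRNA sums were 16.8 to 22.7 CPM at 24 h, 8.39 to 9.42 CPM at 6 h and 2.26 to 14.9 CPM over the 21, and the antisense sums 1018 to 1108 CPM at 24 h, 519 to 843 CPM at 6 h and 519 to 869.6 CPM over the 21. Those of lincRNA were 2487 to 2899 CPM at 24 h, 1140.5 to 1279 CPM at 6 h and 597 to 1928 CPM over the 21 libraries outside the 24 h groups after 6 Gy.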
